A study of Apis mellifera with 12 samples.

Results

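bantam and miR-11 are microRNAs (miRNAs), short RNAs that pair with messenger RNAs through their seed (bases 2 to 8) and lower the output of those messengers. Their reporters, the array probes named ame-bantam and ame-miR-11, were chosen by name and are 2 of the 168 bee miRNA reporters on the array. The samples came from the fat body of worker honey bees, Apis mellifera, aged 15 days and labelled as foragers. The bees had been injected on emergence with 2 µL of double-stranded RNA (dsRNA) at 10 µg/µL, either against the yolk precursor vitellogenin (dsRNA-Vg) or, as the sham control, against green fluorescent protein (dsRNA-GFP), so every bee had received an injected dsRNA. Each group had 6 pools, each pool combined RNA of 5 bees, and each pool was read on 1 array of 1 colour. The tissue was abdominal carcass lined with fat body, which also holds other cell types, and in such bulk RNA a change in the number of cells of a type cannot be told apart from a change in the RNA of each cell. Vitellogenin itself was not analysed here, so the strength of the knockdown is not shown.

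In the fruit fly, bantam promotes tissue growth downstream of the Hippo pathway and represses hid, a gene that starts apoptosis. Fly miR-11 represses hid together with reaper, grim and sickle, which also start apoptosis by disabling the inhibitors of the cell death proteases. Those roles come from the fly, and the targets in the bee were not measured.

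The sequences are shown because the seed decides which other reporters could belong to the same target family. They are the target sequences in the scanner files, 5′ to 3′, with the seed in capitals.
bantam: uGAGAUCAuugugaaagcugauu
miR-11: cAUCACAGgcagaguucuaguu
miR-2: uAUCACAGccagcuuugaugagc
miR-13a: uAUCACAGccauuuugaugag
miR-13b: uAUCACAGccauuuuugacgauu
miR-2944: uAUCACAGcaguaguuaccuggu
The seed of bantam, GAGAUCA, was carried by 0 of the 167 other reporters. The seed of miR-11, AUCACAG, was carried by 4 others, which are the miRNAs of the last 4 lines. Outside the seed these relatives differ from miR-11. miR-2 and miR-13b match it at 13 positions without gaps, and miR-13a and miR-2944 at 11, with a longest common run of 7 bases that is the seed. In the RefSeq gene table of assembly Amel_HAv3.1 the miR-11 gene, Mir11, lies inside the span of 1 protein-coding gene, LOC412770, and bantam overlaps no other gene.

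Both reporters gave signal on every array. All 18 spots of each reporter exceeded the 95th percentile of the empty spots on all 12 arrays. The median bantam spot was 3.85 to 41.95 times as bright as the median empty spot of its array, and the median miR-11 spot 3.07 to 11.6 times. In the deposited value table bantam made up 3.49% ± 1.12 of the summed intensity of an array (SD, n = 12 pools) and miR-11 1.17% ± 0.345. Reporters hybridise with different strength, so these shares are parts of the signal and not of the miRNA molecules.

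bantam varied widely among pools of the same treatment, and the pools of the treatments overlapped. After normalization its log2 intensity in dsRNA-GFP pools 1 to 6 was 11.78, 12.70, 11.05, 12.30, 11.72 and 12.54. In dsRNA-Vg pools 1 to 6 it was 12.33, 12.08, 11.22, 12.04, 12.33 and 12.27. Pool 3 was the lowest pool of each group, dsRNA-GFP pool 2 was the highest of all 12, and every dsRNA-Vg pool lay inside the range of the dsRNA-GFP pools. The deposited intensities showed the same extremes. They ran from 2720 in dsRNA-GFP pool 3 through a median of 5598 to 9356 in dsRNA-GFP pool 2, and from 3218 in dsRNA-Vg pool 3 through a median of 5738 to 6433 in dsRNA-Vg pool 5.

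miR-11 had its extremes in the same pools as bantam, the other way round. Its log2 intensity in dsRNA-GFP pools 1 to 6 was 10.56, 9.74, 11.20, 10.32, 10.19 and 10.20. In dsRNA-Vg pools 1 to 6 it was 10.49, 10.35, 10.83, 10.39, 10.37 and 10.76. Pool 3 was the highest of each group, dsRNA-GFP pool 2 the lowest of all, and the dsRNA-Vg pools again lay inside the dsRNA-GFP range. In the deposited table miR-11 ran from 1115 to 3030 after dsRNA-GFP, with a median of 1600, and from 1570 to 2665 after dsRNA-Vg, with a median of 1892. The scanner signal before normalization ran the same way for both miRNAs. It was lowest in dsRNA-GFP pool 3 and highest in dsRNA-GFP pool 2, at 983.9 and 2109 for miR-11.

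**Figure D1:**
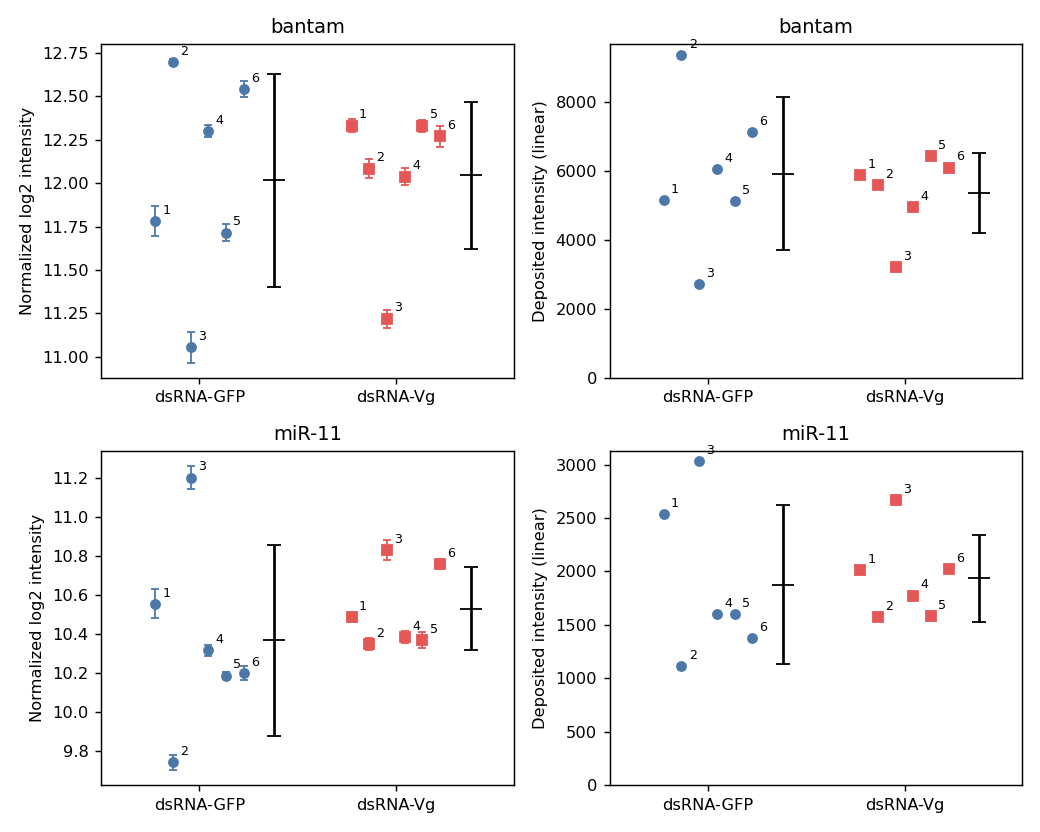
Level of bantam (top) and miR-11 (bottom) in each pool, by treatment. The left panels show normalized log2 intensity with the standard error over 18 spots, the right panels the deposited intensity on a linear axis from 0; numbers are pool numbers, and the black bar beside each group is its mean ± SD over 6 pools. Pool 3 of each group has the lowest bantam and the highest miR-11.

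Vitellogenin dsRNA was compared with GFP dsRNA to see whether these cell survival miRNAs differ when vitellogenin is targeted. Neither miRNA passed the test. bantam had a mean log2 intensity of 12.05 ± 0.42 in the dsRNA-Vg pools and 12.02 ± 0.62 in the dsRNA-GFP pools (SD, n = 6 each). The fold difference was 1.02 with a 95% confidence interval of 0.663 to 1.57 (limma log2 fold change 0.03, SE 0.28, adjusted p = 0.969). miR-11 had a mean of 10.53 ± 0.21 in the dsRNA-Vg pools and 10.37 ± 0.49 in the dsRNA-GFP pools (SD, n = 6 each). The fold difference was 1.12 with an interval of 0.823 to 1.52 (limma log2 fold change 0.16, SE 0.20, adjusted p = 0.723). Both intervals reach to either side of 1, and they do not show that the levels were equal. Over all 127 reporters tested, 1.57% were called, 2 reporters, both brighter after dsRNA-Vg. The groups did not overlap for 2.36% of the tested reporters, and for neither bantam nor miR-11.

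The deposited table gave a like picture. bantam was 0.945-fold after dsRNA-Vg (95% CI 0.629 to 1.42, limma adjusted p = 0.956), so its sign turned, and miR-11 was 1.08-fold (0.747 to 1.56, adjusted p = 0.931). The spots of an array varied little beside the pools, although spot error leaves out labelling and differences between arrays, since each pool was read on 1 array. The SD between pools within groups was 9.70 times the standard error over spots for bantam (0.53 against 0.054, log2) and 9.34 times for miR-11 (0.38 against 0.040). Of the tested reporters, 92.1% had a smaller SD between pools than bantam and 89.0% a smaller one than miR-11, with a median SD of 0.10, though many of those reporters lie near the background where the offset holds values together.

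The difference of bantam from miR-11 on the same array removes any scaling common to both, but not an array effect that differs between them. After quantile normalization it was, in log2 units, 1.51 ± 0.57 in the dsRNA-Vg pools and 1.65 ± 1.07 in the dsRNA-GFP pools (SD, n = 6 each). The change of -0.13 (SE 0.50) was smaller than the spread among pools (two-sided exact permutation p = 0.799, where 924 arrangements of the pools allow a p of 0.00216 at the least). Without normalization between arrays the change was -0.12 (two-sided exact permutation p = 0.825). The ratio itself ranged widely from pool to pool. On the scanner scale the ratio of bantam to miR-11 signal was 0.969 in dsRNA-GFP pool 3 and 1.21 in dsRNA-Vg pool 3, but 6.26 in dsRNA-GFP pool 2. These scanner values hold the background, which does not cancel in a ratio. The median empty spot read from 150.2 in dsRNA-Vg pool 2 to 491.3 in dsRNA-GFP pool 1.

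The seed relatives of miR-11 had no shared direction. miR-2, which with miR-13 represses reaper, grim and sickle in the fly, showed a log2 fold change of 0.02 (SE 0.02). That reporter kept the same rank on 11 arrays, where quantile normalization sets it to 13.78. In the deposited table its log2 fold change was 0.18 (limma adjusted p = 0.597). miR-13b had 0.33 (SE 0.10, limma adjusted p = 0.145) and miR-13a -0.20 (SE 0.06, limma adjusted p = 0.155). miR-13a was detected on 4 dsRNA-GFP and 2 dsRNA-Vg arrays and lies near the background. Each of its 6 dsRNA-Vg pools read below every dsRNA-GFP pool, so it is among the 2.36% of reporters whose groups did not overlap. Deposited values gave miR-13b 0.13 (limma adjusted p = 0.808) and miR-13a -0.69 (adjusted p = 0.314). miR-2944, to which no role is given here, had -0.02 (SE 0.05) and was detected on 4 arrays of each group. None of the 4 relatives passed the threshold.

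miRNAs with a known part in growth or cell death in the fly were listed for comparison, and none of them passed the test. The list includes miR-2, miR-13a and miR-13b, so its counts are not separate from the values of these seed relatives above. Of 16 listed, 16 were tested and 0 passed in either direction by limma, where 5 had an unadjusted p under 0.05. By limma on the deposited values, 0 passed and 2 had such a p. Over all 127 reporters tested, 18 had such a p (14.2%), in the scanner files as in the deposited table. The median log2 fold change of the list was 0.02, beside -0.01 for all 127 tested, with 9 positive and 7 negative values. The following values are from the scanner files. miR-263b, which protects sensory bristle cells from hid in the fly, had the highest value there at 0.47 (SE 0.15, limma adjusted p = 0.155). miR-14, which limits cell death and fat storage in the fly, had -0.31 (SE 0.12, adjusted p = 0.218), and let-7, a timer of development, had the lowest at -0.33 (SE 0.20, adjusted p = 0.432). miR-278, which promotes tissue growth in the fly, had 0.41 (SE 0.29), and miR-8, which promotes body growth from the fly fat body, had -0.01 (SE 0.14). miR-8 read the same 15.29 in dsRNA-GFP pools 2, 4, 5 and 6 and dsRNA-Vg pools 2, 5 and 6. Quantile normalization sets that value by rank, so it limits any difference. From the deposited values miR-8 had 0.02 (limma adjusted p = 0.968). Deposited values gave another order, with miR-278 highest at 0.66 and miR-14 lowest at -1.83 (limma adjusted p = 0.44 and 0.233), miR-263b at 0.24 and let-7 at -0.68. miR-14 was detected on 4 dsRNA-GFP and 3 dsRNA-Vg arrays.

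**Figure D2:**
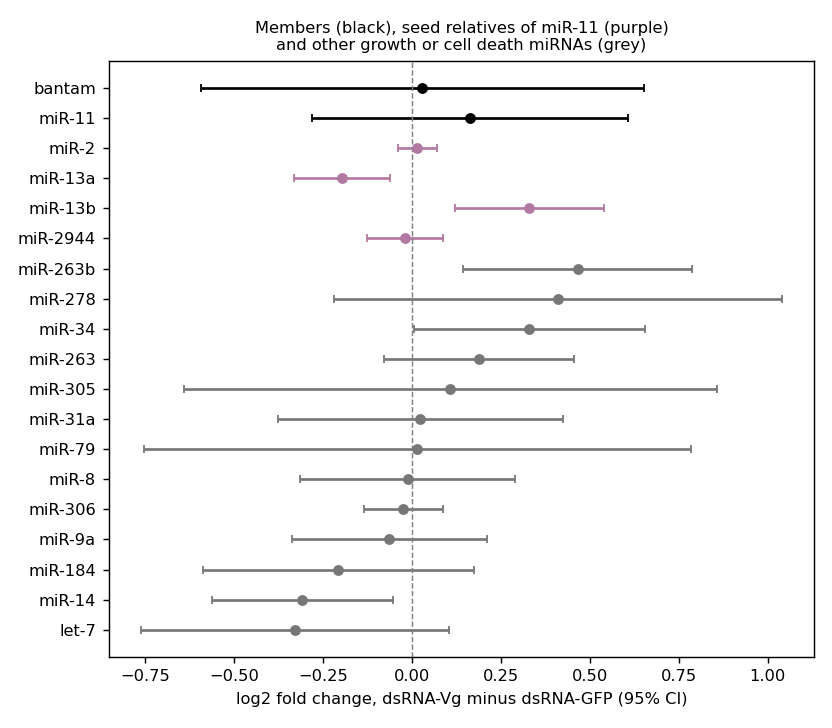
Log2 fold change, dsRNA-Vg minus dsRNA-GFP, with its 95% confidence interval from limma, for bantam and miR-11 (black), the 4 reporters that share the seed of miR-11 (purple) and the other listed growth or cell death miRNAs (grey). The intervals of bantam and miR-11 span 0, and 0 of the miRNAs drawn passed the adjusted threshold.

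From pool to pool, bantam and miR-11 ran opposite to each other after quantile normalization. Over the deviations of the 12 pools from their group means, Pearson's r was -0.798 (two-sided permutation p = 0.00581, 100000 permutations within groups) and Spearman's rho -0.552 (permutation p = 0.0905). Without the 2 pools farthest from the middle in bantam, pool 3 of each group, r was -0.506 (permutation p = 0.301), so its passing the threshold rests on those pools together. Without dsRNA-GFP pool 3 alone r was -0.631 (permutation p = 0.0432), and without dsRNA-Vg pool 3 alone -0.802 (permutation p = 0.0308). Within the dsRNA-GFP pools r was -0.882 (n = 6, exact permutation p = 0.0208) and within the dsRNA-Vg pools -0.582 (n = 6, exact permutation p = 0.219). In the deposited table r was -0.875 (permutation p = 0.00065) and rho -0.741 (permutation p = 0.018), and without pool 3 of each group r was -0.713 (permutation p = 0.093).

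The sign of that relation depended on how arrays were scaled to each other. Without normalization between arrays r was 0.963 (permutation p = 3e-05), and with scaling to the median of all miRNA spots 0.835 (permutation p = 0.00099). With scaling to the median of the 33 other reporters detected on all arrays, a setting chosen after the data were seen, r was -0.343 (permutation p = 0.329). In each of these settings bantam varied more than miR-11, with an SD within groups of 1.20 against 0.34 without normalization, 1.29 against 0.57 with median scaling and 0.64 against 0.43 with the other reporters.

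**Figure D3:**
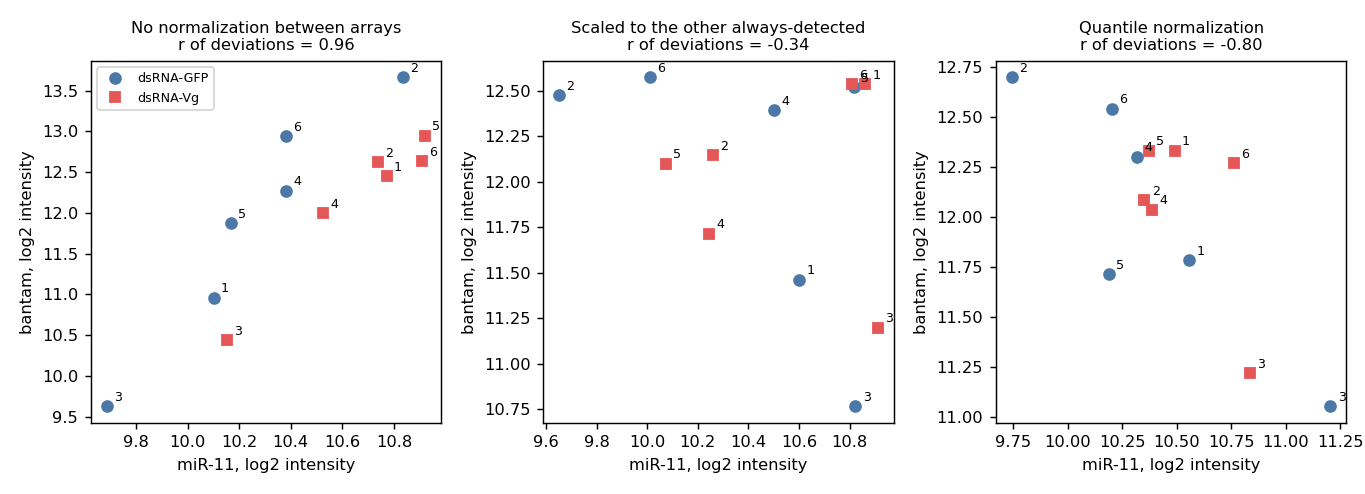
bantam against miR-11 in each pool (log2 intensity, numbered by pool) under 3 treatments of the differences between arrays. The Pearson correlation of deviations from group means is 0.96 without normalization, -0.34 with scaling to the 33 other reporters detected on all arrays, and -0.80 with quantile normalization.

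On the scanner scale both miRNAs were bright on bright arrays and dim on dim arrays, but to unequal degrees. Array brightness was taken as the median intensity of those 33 other reporters, a measure that was not planned. It ran from 595.1 in dsRNA-GFP pool 3 to 2467 in dsRNA-GFP pool 2, with dsRNA-Vg pool 3 at 777.8, the lowest dsRNA-Vg array. The median bantam spot ran from 953.8 in dsRNA-GFP pool 3 to 13196 in dsRNA-GFP pool 2, and the median miR-11 spot in the same pools from 983.9 to 2109. bantam thus spanned 13.8-fold over the arrays where miR-11 spanned 2.14-fold. The log2 deviations of bantam from its group means rose by 3.24 for each unit of those of miR-11. No background was taken out of these scanner values.

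Brightness was set against the members in a family of 6 relations, each over 12 pools and with the group means removed. It followed scanner bantam with r = 0.909 (rho 0.895) and scanner miR-11 with r = 0.880 (rho 0.720), and without the 2 pools farthest from the middle r was 0.827 and 0.718. It followed the log2 ratio of bantam to miR-11 with r = 0.882 (rho 0.888, without 2 pools 0.789). After quantile normalization it followed bantam with r = 0.893 (rho 0.832, without 2 pools 0.840) and miR-11 with r = -0.824 (rho -0.713, without 2 pools -0.560, permutation p = 0.127). The permutation p-values adjusted over the 6 relations, whose sixth member is scanner bantam with scanner miR-11 (r = 0.918, rho 0.867, without 2 pools 0.768), were 0.00132 to 0.006. Reporters on the same array share its brightness, so a positive relation between scanner signals was to be expected. Other reporters were not set singly against brightness, so these relations are not shown to be particular to bantam or miR-11. The log2 median signal of each array had r = 0.187 with normalized bantam (rho 0.273) and -0.051 with normalized miR-11 (rho 0.231). The log2 median of the empty spots had 0.322 (rho 0.441) and -0.049 (rho 0.231). These array measures belong to the family of 10 relations below (permutation p 0.301 to 0.907, adjusted 0.502 to 0.907). Strong relations were thus seen with the median of the 33 reporters and not with these array measures. Whether the amount of RNA, its labelling or the tissue sets brightness was not tested.

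**Figure D4:**
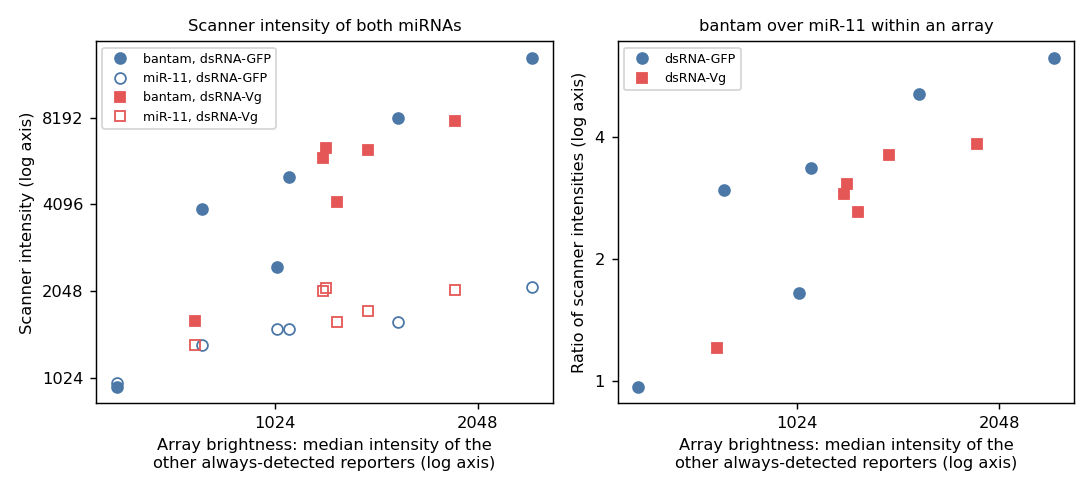
Scanner signal, background included, against array brightness, the median intensity of the 33 other reporters detected on all arrays (log axes, 12 pools). Left, the median spot of bantam (filled) and miR-11 (open); right, the ratio of bantam to miR-11 on each array, which runs from 0.969 on the dimmest array to 6.26 on the brightest.

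Markers of other tissues in the carcass were measured beside these values, in a family of 10 relations with array measures and marker lists. All 3 midgut markers, miR-750, miR-1175 and miR-281, and both muscle markers, miR-1 and miR-133, were tested. By limma 0 of these 5 passed between the treatments, and 1 muscle and 1 midgut marker had an unadjusted p under 0.05, beside 14.2% of all reporters. By limma on the deposited values, 2 midgut markers and 0 muscle markers had such a p, and 0 passed. All 3 midgut markers had negative log2 fold changes, -1.89 for miR-750, -1.17 for miR-1175 and -0.46 for miR-281 (limma adjusted p 0.33 to 0.42). The summed deposited intensity of the midgut markers ran from 223 through a median of 2725.5 to 6294 after dsRNA-GFP, and from 175 through a median of 213.5 to 5412 after dsRNA-Vg. 4 dsRNA-GFP pools (1, 2, 3 and 5) had sums of 2254 or more, as did only pool 3 of the dsRNA-Vg group, and the other 7 pools had 287 or less. Its highest value in each group was in pool 3, the pool with the lowest bantam, at 6294 and 5412. Mean midgut marker level and bantam had r = -0.758 over the deviations (rho -0.601, permutation p = 0.0125, adjusted over the family 0.125), and r = -0.372 without pool 3 of each group. For miR-11 the same relation had r = 0.421 (rho 0.231, permutation p = 0.24, adjusted 0.481), and r = -0.281 without those pools.

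The muscle markers summed to 1618 in dsRNA-GFP pool 3, the lowest of the 12, and to 5224 at most. The sum was mostly miR-1 (deposited mean 3298 against 406 for miR-133 in the dsRNA-GFP pools). The markers had opposite log2 fold changes, -0.44 for miR-1 and 0.44 for miR-133 (limma adjusted p = 0.535 and 0.218). With the mean level of both markers r was 0.554 for bantam (rho 0.294, permutation p = 0.123, adjusted 0.306) and -0.672 for miR-11 (rho -0.566, permutation p = 0.0775, adjusted 0.258). Without dsRNA-GFP pools 3 and 6, r was 0.0022 and -0.176. Singly, miR-1 had r = 0.510 with bantam (rho 0.147) and -0.734 with miR-11 (rho -0.545), and miR-133 had 0.151 and 0.040. The calibration spike PUC2PM had r = 0.214 with bantam (rho 0.126, permutation p = 0.507) and -0.572 with miR-11 (rho -0.545, permutation p = 0.0382, adjusted 0.191, without 2 pools -0.359). Of the nervous system markers, miR-137 was detected on too few arrays to be tested. miR-124 and miR-7 and the ovary marker miR-989 had mean log2 levels of 7.03 to 7.19, near the background. The part of these tissues in the values of bantam and miR-11 was not tested.

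The reporter whose pattern over the 12 pools was most like that of bantam was miR-79, with r = 0.940 over deviations from group means (rho 0.951). miR-79 has the seed of neither member, and was followed by miR-996 (r = 0.845), miR-305 (0.831), miR-3793 (0.799) and miR-307 (0.791). In the deposited table miR-79 was the third most like bantam (r = 0.838) and miR-996 the first (0.889), while miR-307 had r = 0.469 and stood in place 22. miR-996 was detected on 8 of the 12 arrays. These likenesses are descriptions over 12 pools that share array brightness.

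For miR-11 the most alike were miR-3755 (r = 0.820), miR-3758 (0.812), miR-318 (0.785), miR-3764 (0.784) and miR-3729 (0.727). These 5 were detected on only 6 to 8 of the 12 arrays, so they lie near the background. Among the 34 other reporters detected on every array, which were singled out after the data were seen, miR-317 was nearest to miR-11 (r = 0.714), with miR-31a at 0.640 and miR-276 at 0.613, and bantam was nearest to miR-79 as before. On that scale miR-8 had r = -0.613 with miR-11, the exact opposite of miR-276. With bantam they were opposite too, at 0.743 for miR-8 and -0.743 for miR-276, so the values of these reporters are not separate there. Quantile normalization sets values by rank, and its part in this was not tested. In the deposited table miR-8 had r = -0.132 with miR-11. Deposited values gave another order: miR-317 had r = -0.207 with miR-11, so its sign turned, miR-31a had 0.430 and miR-276 had 0.798. The 5 dim reporters had 0.551 to 0.816 there.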

How the data were processed

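Per the labels, a service provider tailed and tagged the small RNA and stained it with Cy3. Per the file headers, the scanner files give a median intensity per spot and no local background. In the deposited value table each miRNA has 1 linear intensity per pool, with background correction and centring not given in the sources used here. An array had 3968 spots, of which 628 were empty, and 18 spots per miRNA.

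Scanner intensities were corrected with normexp (limma 3.58.1, R 4.3.3, offset 50) over all spots, miRNA spots were put on the log2 scale and quantile normalized, and the spots of a reporter were averaged. Detection on an array asked that 50% or more of a reporter's spots lie above the 95th percentile of empty spots. The 127 reporters with detection on 6 or more of 12 arrays were compared with limma, group only, with Benjamini-Hochberg adjustment over all 127 and a threshold of 0.05. The number of arrays limits the precision. The fit was tested on simulated data with independent noise for each reporter, which leaves out any brightness shared by an array. The permutation tests were checked only on simulated cases whose answer was known.

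bantam and miR-11 were given by name. Also named were reporters sharing seed bases 2 to 8, a fixed list of fly growth or cell death miRNAs, and the 5 reporters with the highest r to each member. The members and lists were chosen with earlier results of these data known. The labels call pools biological samples of different bees. Arrays correlated with each other at 0.921 to 0.996, and 0 pairs were identical. Alternatives covered the value table, background, normalization, filter, spot summary, pool number as a block and each pool left out.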

Additional observations from a re-analysis of the deposited data

Results flagged for a closer look

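In 3 of 64 groups of 6 values checked, 1 pool stood far from the other 5 of its group. About 3.2 would be expected by chance if the groups were independent, which they are not. The first 2 below share a pool and bantam, and miR-2 was constant in the dsRNA-Vg pools, so that group could not be flagged. The log2 intensity of bantam was 11.22 in dsRNA-Vg pool 3, against 12.04 to 12.33 in the other dsRNA-Vg pools. The difference of bantam from miR-11 was 0.39 in that same pool, against 1.51 to 1.96 in the others. miR-2 read 13.69 in dsRNA-GFP pool 1, against 13.78 in each of the others, a value that quantile normalization gives to a reporter of constant rank.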

How the results depend on the processing

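Neither bantam nor miR-11 passed the threshold in any of the 12 other settings or with any 1 of the 12 pools left out. The log2 fold change of bantam changed sign in the deposited table (-0.082), with cyclic loess (-0.050) and with the median of the spots (-0.0034), and ran from -0.16 to 0.19 with single pools left out. That of miR-11 stayed positive, from 0.04 to 0.34 with single pools left out. Without normalization between arrays, where the median of all tested reporters lay at -0.22, bantam had 0.29 and miR-11 0.41, and with median scaling 0.73 and 0.78. With scaling to the 33 other reporters, where that median lay at -0.51, they had 0.0072 and 0.13. The number of reporters called was 1 with median scaling, without normalization, with the 35 reporters detected on all arrays and with scaling to the 33 other such reporters, and 2 or 3 with single pools left out. The change of bantam minus miR-11 ran from -0.50 to 0.12 with single pools left out. Leaving out dsRNA-GFP pool 3 gave -0.50, dsRNA-GFP pool 2 gave 0.12 and dsRNA-Vg pool 3 gave 0.09.

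The correlation of bantam with miR-11 was 0.835 with median scaling and 0.963 without normalization. It was -0.343 with scaling to the 33 other reporters and -0.506 with pool 3 of both groups left out, both settings added after the data were seen. With single pools left out it ran from -0.861 to -0.631. The cause of the change of sign was not tested. Pool numbers occur in both groups. Deviations of same-numbered pools correlated above 0.1 in 3 of 6 pairs, at 0.699 for pool 3, 0.556 for pool 4 and 0.321 for pool 6. The others had -0.328 to 0.091, and 5 of 12 pools correlated best with their own number. Whether same-numbered pools are linked was not tested, and the permutation tests of correlation treat them as unlinked. With pool number as a block, 3 reporters were called, and the limma adjusted p was 0.966 for bantam (log2 fold change 0.03) and 0.583 for miR-11 (0.16). The block lowered the SE from 0.28 to 0.18 for bantam and from 0.20 to 0.14 for miR-11. For bantam minus miR-11 the paired exact permutation p was 0.688 (-0.13). A block for slide or scan was not run, because the columns used name none.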
